A study of Mus musculus with 67 samples.

Results

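Kidney transcript levels of the hypotensive mouse strain BPL/1J were compared with those of the normotensive strain BPN/3J on 9 of the 67 arrays of the series, 4 of BPL and 5 of BPN, chosen by the tissue and strain in their titles. All mice were males of 12 weeks fed standard chow, and no drug, diet or genetic change set the groups apart other than strain. The stated systolic pressures were 69 ± 1.7 mmHg for BPL, 94 ± 6 mmHg for BPN and 142 ± 5 mmHg for the hypertensive strain BPH/2J, whose 5 kidney arrays entered the same fit. The kind of error was not stated. Tissues of 5 mice per strain were collected, and the BPL kidney arrays carry the numbers 1, 2, 4 and 5. Labels do not tie arrays to animals, so the p-values reflect variation among arrays, and some of that may be technical. The strains are separate inbred lines, so blood pressure and every other inherited difference between them cannot be told apart.

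The kidney sets long-term blood pressure by adjusting how much sodium and water the nephron returns to the blood. Angiotensinogen, cut by renin and then by angiotensin converting enzyme, yields angiotensin II, which constricts vessels and promotes sodium uptake along the tubule. The proximal tubule recovers most of the filtered load and also carries out conjugation and organic anion transport, while the distal convoluted tubule and collecting duct make the hormonally controlled adjustments.

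Values are log2 intensities, differences are BPL minus BPN on the log2 scale ± the standard error of the limma fit, folds are 2 to the power of that difference, and levels are means ± SD over 4 BPL and 5 BPN arrays. A gene was called when its p-value, adjusted by the Benjamini-Hochberg method over all probe sets, was below 0.05. No detection calls were used here, and a fold is left out where a strain mean lies below 3.57, the lower quartile of all probe sets. These are bulk tissues: fewer cells of a type and less RNA per cell cannot be told apart.

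The labelled tissue was checked against its defining markers. Kap, an abundant transcript of the male proximal tubule, stood at 14.22 ± 0.05 in BPL and 14.23 ± 0.03 in BPN. Umod, the uromodulin of the thick ascending limb, stood at 13.19 ± 0.05 and 13.27 ± 0.05. Array BPL 1 and arrays BPN 4 and BPN 5 also carried adrenal transcripts. The mean log2 level over 12 adrenal cortex markers was 6.98 in BPL 1, 6.85 in BPN 4 and 7.24 in BPN 5, against 4.57 to 5.00 in the other BPL arrays and 4.8 to 5.15 in the other BPN arrays. The side-chain cleavage enzyme Cyp11a1, the first step of steroid synthesis, read 8.77, 4.16, 4.42 and 3.97 in BPL 1, 2, 4 and 5, and 3.79, 4.84, 4.64, 8.87 and 9.57 in BPN 1 to 5. Its strain difference of -1.01 ± 1.12 was not called (adjusted p = 0.711). None of the 12 cortex markers was called, and 1 of 10 adrenal medulla markers was. That member, Npy, encodes neuropeptide Y, and its BPL arrays read 8.41, 8.52, 8.45 and 8.08 and its BPN arrays 5.42, 5.70, 5.73, 6.00 and 6.12. BPN 4 and BPN 5, which carried adrenal transcripts, read highest among the BPN arrays. Npy was 5.94-fold higher in BPL (2.57 ± 0.12, adjusted p = 3.31e-10), with no overlap of arrays, and 2.73 without the 3 arrays. Adipocyte markers averaged 7.33 in BPL 2 and 8.04 to 8.96 elsewhere, with Adipoq at 6.62 in that array. MHC class II markers averaged highest in BPN 2 (7.52).

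**Figure D1:**
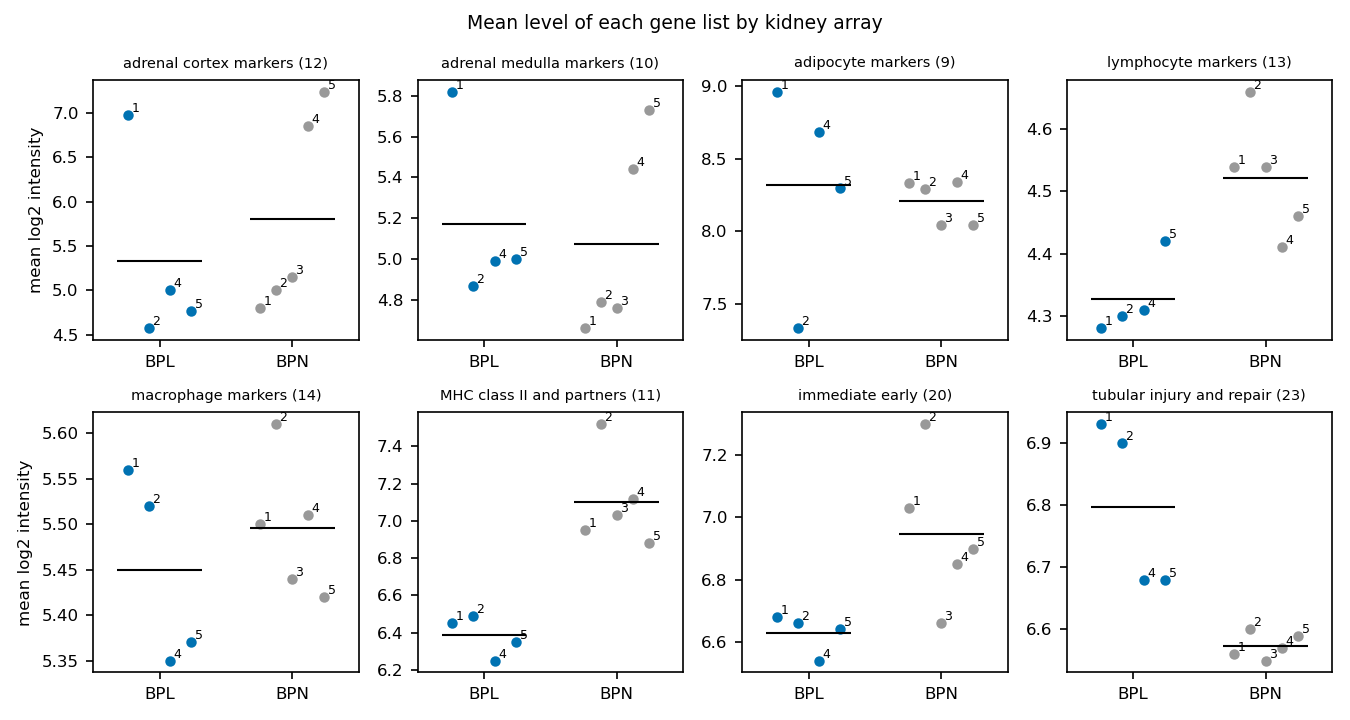
Mean log2 level over the members of each gene list (y axis, log2 intensity) in each BPL and BPN kidney array (points), with the strain mean as a black line; the adrenal cortex list stands at 6.98 in BPL 1, 6.85 in BPN 4 and 7.24 in BPN 5 and at or below 5.15 in the others.

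Of 38385 probe sets, 2396 (6.24%) were called, 1235 higher and 1161 lower in BPL. The median fold of the called probe sets was 1.37, and 278 differed 2-fold or more, 139 in each direction. For 275 of those 278 every BPL array lay on 1 side of every BPN array, which selection by call and fold itself favours. The share of all probe sets separated in this way was not counted. Of the 278, 277 were called with each array left out in turn. With 1 probe set per gene, 758 of 19147 genes (3.96%) were called higher and 730 (3.81%) lower, and these shares are the background against which the lists are read. Without BPL 1, BPN 4 and BPN 5, which leaves 3 arrays per strain, 1639 probe sets were called, 1459 of them among the 2396.

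The largest increases in BPL included a plasma carrier, conjugating enzymes and membrane proteins. Tm4sf5, a tetraspanin-like membrane protein, read 8.87, 8.86, 8.92 and 8.80 in BPL and 4.45, 4.56, 4.62, 4.37 and 4.47 in BPN. Every BPL array lay above every BPN array, and the gene was 20.7-fold higher (4.37 ± 0.07, adjusted p = 1.7e-16). Ttr, transthyretin, the carrier of thyroxine and of retinol-binding protein, read 8.63, 8.93, 8.92 and 8.5 in BPL and 4.58, 4.74, 4.58, 4.47 and 4.58 in BPN, a 17.8-fold increase (4.16 ± 0.10, adjusted p = 1.86e-14). Its BPH mean was 7.72 ± 0.13, between the other strains. The glutathione transferase Gstp3 (3.92 ± 0.17), the glucuronosyltransferase Ugt2b37 (3.70 ± 0.21), Nipal2 (3.57 ± 0.10) and the fatty acid hydroxylase Cyp4b1 (3.20 ± 0.06) followed, with folds from 15.1 to 9.17. Arrays without overlap between the strains were a condition for entering these largest increases and decreases, so the lack of overlap is no added support. Defb26, a beta-defensin, had a difference of 4.18 ± 0.08 from a BPN mean of 3.27, below the lower quartile.

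The decreases were led by Tmem267, a transmembrane protein gene, at 3.67, 3.82, 3.80 and 3.76 in BPL and 9.74, 9.76, 9.83, 9.88 and 10.02 in BPN. It was 67.6-fold lower in BPL (-6.08 ± 0.09, adjusted p = 1.31e-16), and its BPH mean, 3.48 ± 0.19, lay near that of BPL. Pik3c2g, a class II phosphoinositide kinase, averaged 3.23 ± 0.23 in BPL and 8.57 ± 0.14 in BPN, and the protease inhibitor gene Spink6 averaged 3.12 ± 0.17 and 7.97 ± 0.17. Both BPL means lie below the lower quartile, so no fold is given for either. Bcat1, the cytosolic branched-chain aminotransferase, was 14.3-fold lower in BPL (-3.84 ± 0.18, adjusted p = 3.72e-10), from 10.18 ± 0.16 in BPN. Its BPL arrays read 6.82, 6.15, 6.13 and 6.26, and those of BPN 9.99 to 10.41.

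**Figure D2:**
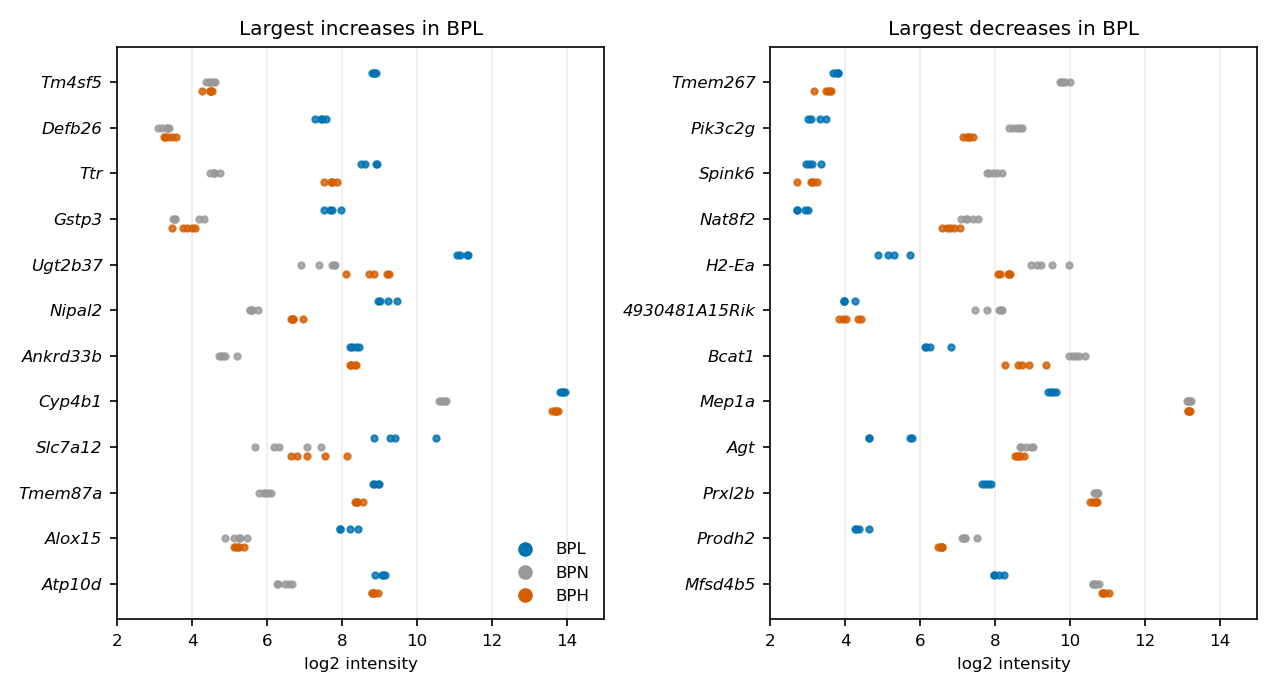
Log2 intensity (x axis) of the genes with the largest increases and decreases in BPL, 1 point per kidney array, coloured by strain. Only called genes whose BPL and BPN arrays do not overlap, and whose higher strain mean reached the median of all probe sets, could enter. The Tmem267 arrays lie at 3.67 to 3.82 in BPL and 9.74 to 10.02 in BPN.

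Among genes of the renin-angiotensin list, 2 of 11 measured members were higher in BPL and 1 was lower, and the 3 calls remained with each array left out and without the 3 arrays. The median difference of the list was 0.07, against -0.0117 over all genes. Agt, angiotensinogen, the precursor of the angiotensins, read 5.73, 4.63, 5.80 and 4.64 in BPL and 9.03, 8.97, 8.84, 8.68 and 8.71 in BPN. The BPL arrays fell into a pair near 5.8 and a pair near 4.6, all below the lowest BPN array. Agt was 12.5-fold lower in BPL kidney (-3.64 ± 0.20, adjusted p = 3.41e-09) and its BPH mean was 8.64 ± 0.09. In liver, the main source of circulating angiotensinogen, the difference was -0.22 (adjusted p = 0.112), and in heart -0.40 (adjusted p = 0.072).

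The peptidases that act on angiotensins differed by less. Mme, neprilysin, which degrades angiotensins and natriuretic peptides, read 8.62, 8.60, 8.58 and 8.45 in BPL and 8.14, 8.18, 8.24, 8.24 and 7.85 in BPN (0.43 ± 0.08, 1.35-fold, adjusted p = 0.00385). Anpep, aminopeptidase N, was 1.30-fold higher (0.38 ± 0.08, adjusted p = 0.00499). Neither gene's arrays overlapped between the strains. Values for the rest of the pathway that were not called include Ace, the converting enzyme, at 0.14 ± 0.12 (adjusted p = 0.601), Agtr1a, the type 1 receptor, at 0.07 ± 0.08 (adjusted p = 0.685), Enpep, the aminopeptidase of angiotensin II, at -0.37 ± 0.11 (adjusted p = 0.0611) and the renin receptor Atp6ap2 at 0.17 ± 0.07 (adjusted p = 0.184).

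Brush-border and secreted proteases included some of the largest differences. Mep1a, the alpha subunit of the metalloprotease meprin, read 9.42, 9.55, 9.64 and 9.49 in BPL and 13.21, 13.13, 13.15, 13.18 and 13.24 in BPN, 12.6-fold lower (-3.66 ± 0.06, adjusted p = 1.7e-16). Mep1b, the beta subunit, was 1.74-fold higher (0.80 ± 0.08, adjusted p = 4.85e-06), so the subunits differed in opposite directions. Mep1b was chosen after its values were seen. Klk1, the kidney kallikrein that releases vasodilator kinins, was 1.44-fold lower in BPL (-0.53 ± 0.07, adjusted p = 0.000117), and its BPL arrays, 12.11 to 12.41, lay below those of BPN, 12.68 to 12.84. Of 24 genes of natriuretic peptide, nitric oxide and endothelin signalling, 1 was higher and 2 were lower. Pde1a, a calmodulin-dependent phosphodiesterase, was the higher one (0.67 ± 0.08, adjusted p = 5.5e-05). The second lower one, the clearance receptor Npr3 (-0.53 ± 0.12, adjusted p = 0.0132), lost its call without BPL 4. Nos3, the endothelial nitric oxide synthase, differed by -0.04 ± 0.09 (adjusted p = 0.873).

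Along the nephron, the proximal tubule list of 18 measured markers held 4 higher and 4 lower, with a median of -0.08. Slc5a12, a lactate cotransporter, read 11.17 to 11.34 in BPL and 10.52 to 10.78 in BPN (0.55 ± 0.08, adjusted p = 0.000151), and Cubn, the endocytic receptor cubilin, was also higher (0.39 ± 0.07, adjusted p = 0.00344). Napsa, an aspartic protease (-0.38 ± 0.06, adjusted p = 0.000448), and Gatm, which makes the creatine precursor (-0.37 ± 0.06, adjusted p = 0.000823), were lower. Markers of the same segment therefore differed in both directions, and the differences were below 1.5-fold. Lrp2, the receptor megalin, and Hnf4a, a transcription factor of the segment, both differed by -0.03 and were not called. In the proximal transport list, 6 of 15 were higher and 2 lower, but 1 higher and 2 lower remained with each array left out and without the 3 arrays. Those were the phosphate transporter Slc20a2 (0.60 ± 0.08, adjusted p = 0.000117), its counterpart Slc34a3 (-0.42 ± 0.07, adjusted p = 0.000526) and the sulfate transporter Slc26a1 (-0.38 ± 0.08, adjusted p = 0.01). Slc9a3, the main proximal sodium-hydrogen exchanger, differed by 0.03 ± 0.08 (adjusted p = 0.885).

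In the thick limb list, 2 of 13 were higher and 1 lower, and without the 3 arrays the higher calls were lost. The lower one, the exchanger Slc9a2, read 6.36, 6.54, 6.53 and 6.43 in BPL and 6.92 to 7.15 in BPN (-0.60 ± 0.07, adjusted p = 2.6e-05). The sodium-potassium-chloride cotransporter Slc12a1 differed by -0.05 ± 0.08 (adjusted p = 0.806). The distal convoluted tubule list held 1 higher and 6 lower of 18, with a median of -0.20, and 1 higher and 4 lower remained with each array left out and without the 3 arrays. Slc12a3, the thiazide-sensitive cotransporter, read 9.83, 9.77, 9.81 and 9.81 in BPL and 10.32, 10.18, 10.25, 10.23 and 10.05 in BPN, 1.32-fold lower (-0.40 ± 0.06, adjusted p = 0.00065). Its BPH mean of 9.84 ± 0.07 was as low as that of BPL. A second, dimmer Slc12a3 probe set averaged 8.61 ± 0.20 in BPL and 8.81 ± 0.09 in BPN. It differed by -0.20 ± 0.09, was not called (adjusted p = 0.219), and its arrays overlapped between the strains. Kcnj10, the basolateral potassium channel of these cells (-0.53 ± 0.06, adjusted p = 2.26e-05), Fxyd2, a sodium pump subunit (-0.62 ± 0.10, adjusted p = 0.000446), and the calcium-binding S100g (-0.46 ± 0.07, adjusted p = 0.000255) were lower as well. The higher member was Pvalb, parvalbumin, at 8.96, 8.85, 8.82 and 8.78 in BPL and 7.47, 7.10, 7.30, 7.52 and 7.49 in BPN. Pvalb was 2.78-fold higher (1.48 ± 0.10, adjusted p = 2.4e-08), opposite in direction to the other called members. Wnk4 and Stk39, kinases that activate Slc12a3, differed by 0.07 and -0.04 and were not called.

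In collecting duct principal cells, 4 of 15 members were lower and none was higher, and 3 of the 4 remained with each array left out. Aqp2, the vasopressin-regulated water channel, read 10.62, 10.51, 10.34 and 10.43 in BPL and 10.78, 10.95, 11.02, 10.83 and 11.04 in BPN (-0.45 ± 0.10, 1.37-fold, adjusted p = 0.011). Aqp3, the basolateral water channel, was 1.41-fold lower (-0.49 ± 0.08, adjusted p = 0.00061). Sgk1, the aldosterone-induced kinase that raises sodium channel activity, was 1.72-fold lower (-0.78 ± 0.14, adjusted p = 0.00201). The arrays of these 3 genes did not overlap between the strains. The sodium channel subunits were not called, with Scnn1a at -0.11 ± 0.07, Scnn1b at 0.05 ± 0.08 and Scnn1g at -0.04 ± 0.07 (adjusted p from 0.452 to 0.834). Nr3c2, the mineralocorticoid receptor (0.18 ± 0.07, adjusted p = 0.149), and Hsd11b2, which shields it from glucocorticoid (-0.08 ± 0.07, adjusted p = 0.607), were not called either.

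The intercalated cell list, of acid-base transporters and their regulators, leaned the other way, with 7 higher and 1 lower of 22 and a median of 0.15. With each array left out and without the 3 arrays, 2 higher calls remained. These were the transcription factor gene Hmx2 (0.96 ± 0.16, adjusted p = 0.0012), whose BPL arrays read 5.61 to 5.97 and BPN arrays 4.6 to 5.50, and the transporter Slc4a9 (0.48 ± 0.07, adjusted p = 0.000496). Slc26a4, pendrin, and Slc4a1, the anion exchanger of acid-secreting cells, differed by 0.07 and 0.05 and were not called. Of 12 podocyte markers, 2 were higher and 3 lower, and 1 call remained in the same way, that of the cell cycle inhibitor Cdkn1c (0.64 ± 0.08, adjusted p = 5.76e-05). Tek, the angiopoietin receptor, was lower (-0.44 ± 0.07, adjusted p = 0.000842), the sole call among 14 endothelial markers. Angpt1, the Tek ligand, was also lower (-0.90 ± 0.09, adjusted p = 4.2e-06), and was picked out after its values were seen. Aqp11, an intracellular water channel, read 8.75 to 8.79 in BPL and 8.07 to 8.34 in BPN (0.60 ± 0.07, adjusted p = 1.33e-05).

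**Figure D3:**
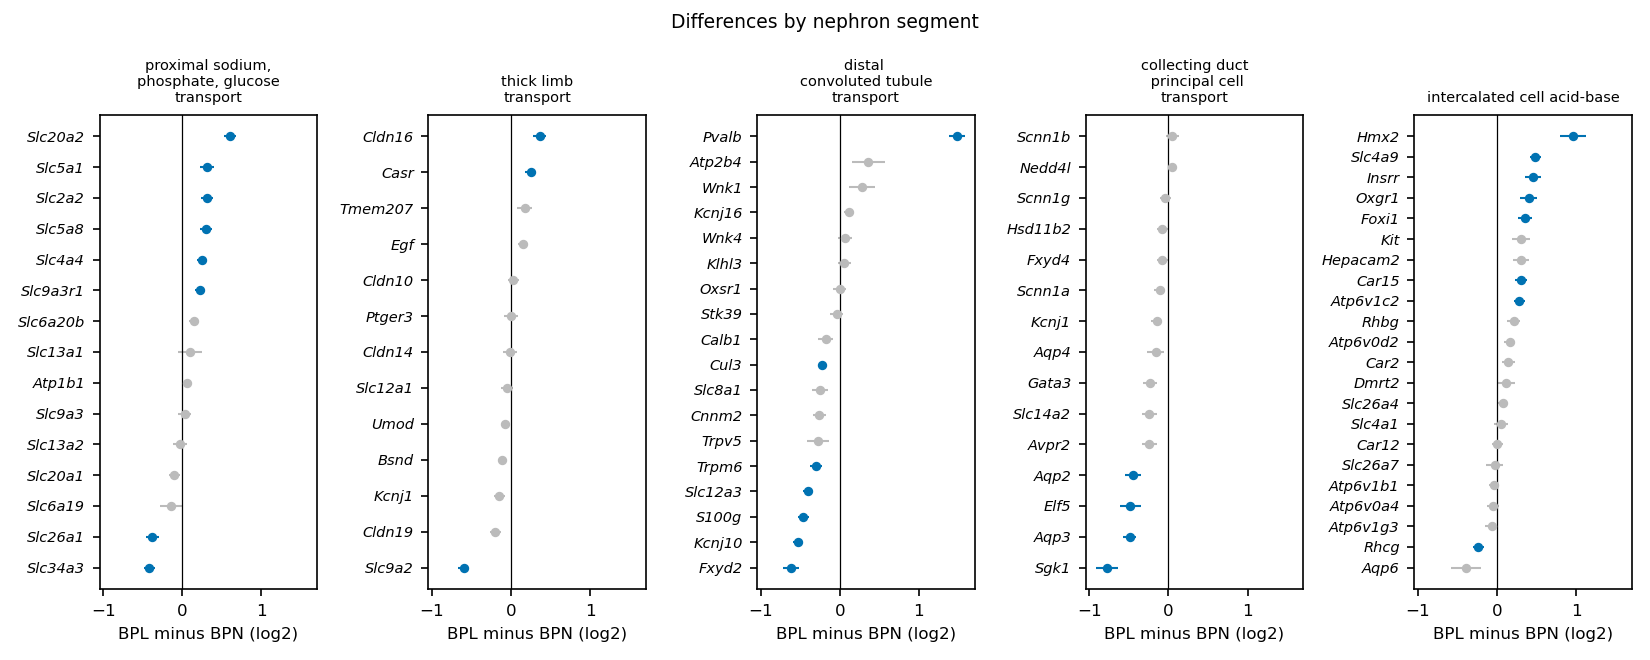
BPL minus BPN difference (log2, x axis) of each measured member of the nephron segment lists, with the standard error as bars and members not called in grey; in the distal convoluted tubule list Pvalb stands at 1.48 and Slc12a3 at -0.40.

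In the list for vitamin D, calcium and phosphate, 3 of 16 were higher and 2 lower. Cyp24a1, the hydroxylase that inactivates calcitriol, read 10.15, 9.39, 8.93 and 9.16 in BPL and 8.37, 7.0, 7.63, 7.25 and 7.09 in BPN. It was 3.84-fold higher in BPL (1.94 ± 0.36, adjusted p = 0.00224), but the highest arrays of both strains were numbered 1 and its difference without the 3 adrenal-bearing arrays was 1.49 (adjusted p = 0.0703). Cyp27b1, the enzyme that makes calcitriol, averaged 4.66 ± 0.29 in BPL and 5.74 ± 0.88 in BPN, a difference of -1.07 ± 0.33 that was not called (adjusted p = 0.0696) and was called without those 3 arrays (-1.39, adjusted p = 0.0304). Neither the receptor Vdr (0.14 ± 0.07, adjusted p = 0.290) nor the FGF23 coreceptor Kl (0.07 ± 0.06, adjusted p = 0.612) was called.

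Lipoxygenases were the strongest members of the arachidonate list, in which 4 of 25 genes were higher and none lower. Alox15, the 12/15-lipoxygenase, read 8.44, 8.23, 7.96 and 7.95 in BPL and 4.87, 5.26, 5.28, 5.13 and 5.47 in BPN. It was 7.70-fold higher (2.94 ± 0.12, adjusted p = 3.92e-11), and its BPH mean was 5.23 ± 0.10, beside 5.20 ± 0.22 in BPN. Alox12, the platelet-type enzyme, was 2.34-fold higher (1.23 ± 0.11, adjusted p = 1.17e-06). The epoxygenase Cyp2j11, which makes vasodilator epoxides, was 1.40-fold higher (0.49 ± 0.08, adjusted p = 0.00126). Ephx2, which hydrolyses those epoxides, had a difference of 0.20 ± 0.06 (adjusted p = 0.0469) and kept its call with only BPN 4 left out; the other 8 arrays each removed it. These calls did not extend to Ptgs2, the inducible cyclooxygenase (-0.38 ± 0.19, adjusted p = 0.305).

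Conjugation and transport genes of the proximal tubule included large differences. The glucuronidation and sulfation list held 5 higher and 1 lower of 16, and 4 higher and 1 lower remained with each array left out. Ugt2b37 read 11.07, 11.15, 11.36 and 11.34 in BPL and 6.90, 7.38, 7.74, 7.83 and 7.78 in BPN, 13-fold higher (3.70 ± 0.21, adjusted p = 4.39e-09). Its paralog Ugt2b34 was 2.74-fold lower (-1.45 ± 0.11, adjusted p = 2.37e-07), so members of 1 family differed in both directions. These paralogs are alike in sequence, and which of them a probe set reads was not tested. The organic ion and drug transporter list held 6 higher and 2 lower of 29, and 4 higher remained. The efflux pump Abcc2 was 2.20-fold higher (1.14 ± 0.14, adjusted p = 3.85e-05), and the uptake carriers Slco1a1 (1.03 ± 0.14, adjusted p = 0.000163), Slco1a6 (0.65 ± 0.07, adjusted p = 9.38e-06) and Slc22a2 (0.42 ± 0.06, adjusted p = 0.000421) were higher too. Slc22a6, a main carrier of organic anions, differed by 0.06 ± 0.07 (adjusted p = 0.746).

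Androgens shape transcript levels in the male mouse kidney. In a list of 11 androgen-responsive genes, 4 were higher and 2 lower, with a median of -0.01. Slc7a12, an amino acid carrier, read 8.87, 9.28, 10.51 and 9.42 in BPL and 5.69, 6.18, 7.43, 7.07 and 6.31 in BPN, 7.92-fold higher (2.99 ± 0.38, adjusted p = 5.77e-05). Akr1c18, a steroid dehydrogenase, read 8.46 to 8.67 in BPL and 10.75 to 11.19 in BPN, 5.56-fold lower (-2.47 ± 0.15, adjusted p = 1.11e-08). Calls in the list therefore went both ways. The mean level of the list was 10.55 to 10.65 in the BPL arrays and 10.07 to 10.29 in the BPN arrays. Kap differed by -0.01 ± 0.05 (adjusted p = 0.949), but it lies near the highest intensity of each array, where a difference could be missed. Of 7 measured 3-beta-hydroxysteroid dehydrogenases, Hsd3b3 was 2.96-fold higher (1.57 ± 0.10, adjusted p = 1.26e-08) and Hsd3b2 1.89-fold lower (-0.92 ± 0.06, adjusted p = 8.85e-09). These were chosen after their values were seen.

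Metallothioneins, small proteins that bind zinc, copper and cadmium, were examined after their values were seen, so the result is a description and the promoters are shown for the metal response element core that regulates them. Mt1 read 11.18, 11.37, 11.50 and 11.59 in BPL and 10.46, 10.21, 10.19, 10.16 and 10.23 in BPN, 2.23-fold higher (1.16 ± 0.09, adjusted p = 1.83e-07). Mt2 read 9.20, 9.42, 9.77 and 9.79 in BPL and 8.08, 7.69, 7.86, 7.91 and 7.85 in BPN, 3.18-fold higher (1.67 ± 0.12, adjusted p = 5.64e-08). Neither gene overlapped between the strains. Both genes were higher in heart as well, by 0.43 and 0.93 (adjusted p = 0.00216 and 0.000711). The 250 bases before the start of each gene, from RefSeq on GRCm38.p6, plus strand, are printed with matches to TGCACNC or TGCGCNC, on either strand, in capitals. Mt1 lies at chr8:94178839-94179088 and Mt2 at chr8:94172368-94172617.
Mt1: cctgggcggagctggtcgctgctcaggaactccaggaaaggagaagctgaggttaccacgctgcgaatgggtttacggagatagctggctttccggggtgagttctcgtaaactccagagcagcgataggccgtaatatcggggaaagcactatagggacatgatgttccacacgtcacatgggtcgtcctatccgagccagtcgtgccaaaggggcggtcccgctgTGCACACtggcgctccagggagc
Mt2: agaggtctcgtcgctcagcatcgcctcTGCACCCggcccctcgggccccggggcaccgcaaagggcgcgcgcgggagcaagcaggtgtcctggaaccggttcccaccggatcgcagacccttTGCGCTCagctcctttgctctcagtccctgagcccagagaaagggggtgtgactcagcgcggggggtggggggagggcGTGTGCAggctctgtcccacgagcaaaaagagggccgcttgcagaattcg

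The Mt1 window holds 1 match, on the plus strand, and the Mt2 window holds 3, of which 2 are on the plus strand and 1 on the minus. Across 32851 promoter windows of the same length, 21.4% hold 1 or more matches and 1.26% hold 3 or more. With the 50 bases after the start added, Mt1 holds 3 matches and Mt2 holds 4, and 1.97% and 0.517% of 300-base windows hold at least as many. A match is a description of these letters and not evidence of binding.

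In energy metabolism, the list for fatty acid oxidation held 4 higher and 2 lower of 22, of which 1 and 2 remained with each array left out and without the 3 arrays. Plin2, the lipid droplet coat protein, read 7.75, 7.35, 7.66 and 7.49 in BPL and 8.94, 9.07, 8.83, 8.95 and 8.71 in BPN, 2.53-fold lower (-1.34 ± 0.12, adjusted p = 1.24e-06). Acaa2, a thiolase of beta oxidation, was lower (-0.70 ± 0.09, adjusted p = 6.24e-05). Pdk4, an inhibitor of pyruvate dehydrogenase, differed by 0.98 ± 0.22 (adjusted p = 0.0105), but BPL 2 read 6.52 among the BPN arrays of 6.36 to 6.70, and the adjusted p was 0.0763 without the 3 arrays. The glycolysis and gluconeogenesis list held 4 lower and none higher of 17, and the 4 remained. Pcx, pyruvate carboxylase, which starts gluconeogenesis, read 9.99 to 10.09 in BPL and 10.58 to 10.63 in BPN (-0.58 ± 0.06, adjusted p = 4.78e-06). Pfkp (-0.51), Khk (-0.29) and Fbp1 (-0.26) were the others. The cholesterol list held 1 higher and 4 lower of 19. Hmgcs1, the first committed enzyme of the pathway, read 10.77, 10.74, 10.84 and 10.64 in BPL and 11.66 to 11.84 in BPN, 2.00-fold lower (-1.0 ± 0.07, adjusted p = 7.28e-08). Idi1, a later step, was higher (0.50 ± 0.10, adjusted p = 0.00618). Idi1 and Mvk, mevalonate kinase (-0.69 ± 0.10, adjusted p = 0.000234), both read highest in BPN 4 and BPN 5 among the BPN arrays, the arrays with adrenal cortex signal, whose part was not tested. Without the 3 arrays Mvk differed by -0.54 and Idi1 by 0.70, both called.

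Among antioxidant enzymes, 2 of 27 were higher and 1 lower. The mitochondrial superoxide dismutase Sod2 was the lower one, at 9.28, 9.30, 9.29 and 9.27 in BPL and 10.10 to 10.24 in BPN, 1.84-fold (-0.88 ± 0.06, adjusted p = 3.2e-08). Its BPH mean was 9.33 ± 0.08, and in heart and liver the difference was -1.09 and -0.53 (adjusted p = 2.5e-10 and 7.11e-05). In aorta, which was amplified by another protocol, the Sod2 difference was -0.15 (adjusted p = 0.598). A second, dimmer Sod2 probe set differed by -0.30 ± 0.07 in kidney (adjusted p = 0.0147). Xdh, xanthine oxidoreductase, was 1.60-fold higher (0.67 ± 0.11, adjusted p = 0.000761). Nox4, the kidney's NADPH oxidase, differed by -0.02 ± 0.06 (adjusted p = 0.928). Gstk1 was the sole call among the 18 measured members of the glutathione transferase list (-0.93 ± 0.07, adjusted p = 9.58e-08). Gstp3, a family member outside that list, was called higher (3.92 ± 0.17, adjusted p = 1.81e-10). Apob, apolipoprotein B, picked out after its values were seen, was 5.13-fold lower (-2.36 ± 0.26, adjusted p = 1.58e-05), with a spread in BPL from 5.39 to 7.30.

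Called members of the MHC class II and interferon lists were all lower in BPL. Of 11 MHC class II genes and partners, 3 were lower and none was higher, and 2 remained with each array left out and without the 3 arrays. H2-Ea, the class II alpha chain, read 5.74, 5.14, 5.30 and 4.87 in BPL and 9.12, 9.98, 9.24, 9.52 and 8.96 in BPN, 17.2-fold lower (-4.10 ± 0.19, adjusted p = 2.18e-10), and the difference was -4.17 in heart and -3.48 in liver. H2-Ab1 was 2.22-fold lower (-1.15 ± 0.19, adjusted p = 0.000968). Cd74, the invariant chain, differed by -0.73 ± 0.21 and was not called (adjusted p = 0.0539), with BPN 2 the highest class II array. In the class I list, 4 of 17 were lower and 2 higher, of which 3 and 1 remained in the same way, and the proteasome subunit Psmb9 was 1.61-fold lower (-0.68 ± 0.13, adjusted p = 0.00233). In the interferon list, 3 of 17 were lower and 2 remained, with Gbp2, a guanylate-binding protein, at -0.93 ± 0.14 (adjusted p = 0.000417). The median of the interferon list was 0.06, and 10 of the 17 members were above 0. Of 10 measured guanylate-binding proteins, a family examined after its values were seen, 4 were lower and 3 higher. The higher ones were Gbp2b (1.68 ± 0.14, adjusted p = 5.02e-07), Gbp8 (1.84 ± 0.15, adjusted p = 3.24e-07) and Gbp9 (0.54 ± 0.12, adjusted p = 0.0104). In limma, 0 of 14 macrophage and 0 of 13 lymphocyte markers were called, while 2 and 4 had an unadjusted p below 0.05. The macrophage list had a median of -0.04, with 6 members above 0. The lymphocyte list had a median of -0.20, and Cd3e, at 0.02 ± 0.14 (adjusted p = 0.959), was its 1 member above 0.

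Genes of tubular injury and repair leaned towards BPL, with 7 higher and 1 lower of 23 and a median of 0.12, and 4 higher and 1 lower remained with each array left out and without the 3 arrays. Havcr1, kidney injury molecule 1, read 8.75, 8.58, 8.21 and 8.30 in BPL and 7.5, 7.89, 7.65, 7.84 and 7.82 in BPN (0.72 ± 0.12, 1.65-fold, adjusted p = 0.000721). Ccl2, a monocyte-attracting chemokine, was 2.17-fold higher (1.12 ± 0.18, adjusted p = 0.000821). Vcam1, an adhesion molecule, was 1.55-fold higher (0.63 ± 0.12, adjusted p = 0.00365). For these 3 genes arrays BPL 1 and BPL 2 read above BPL 4 and BPL 5, and all 4 lay above the BPN arrays. Lcn2, lipocalin 2, was 1.85-fold higher (0.89 ± 0.17, adjusted p = 0.00382), with 0.75 and an adjusted p of 0.0632 without the 3 arrays. Of 35 extracellular matrix genes, 2 were lower and none higher. Thbs1, thrombospondin, was 1.47-fold lower (-0.56 ± 0.10, adjusted p = 0.00205), and Col1a1 differed by -0.14 ± 0.15 (adjusted p = 0.677).

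The clock and immediate early lists varied widely between arrays. In each, 1 of 20 was lower, and neither call remained with each array left out. Per2 read 5.94, 4.96, 5.08 and 5.48 in BPL and 7.48, 7.13, 5.77, 6.49 and 5.89 in BPN (-1.19 ± 0.30, adjusted p = 0.0253), and Dusp1 8.45 to 9.27 and 9.24 to 10.50 (-0.90 ± 0.23, adjusted p = 0.0238). Each lost its call without BPL 2, BPL 4, BPN 1 or BPN 2. Without the 3 adrenal-bearing arrays, 2 clock genes and 3 immediate early genes were lower, with Per2 at -1.62 (adjusted p = 0.0128) and Dusp1 at -1.33 (adjusted p = 0.00118). Fos differed by -1.41 ± 0.48 and Egr1 by -1.22 ± 0.36, not called (adjusted p = 0.102 and 0.0539). Egln1, an oxygen sensor, was 1.37-fold higher (0.45 ± 0.06, adjusted p = 4.16e-05), the sole call among 12 hypoxia genes.

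**Figure D4:**
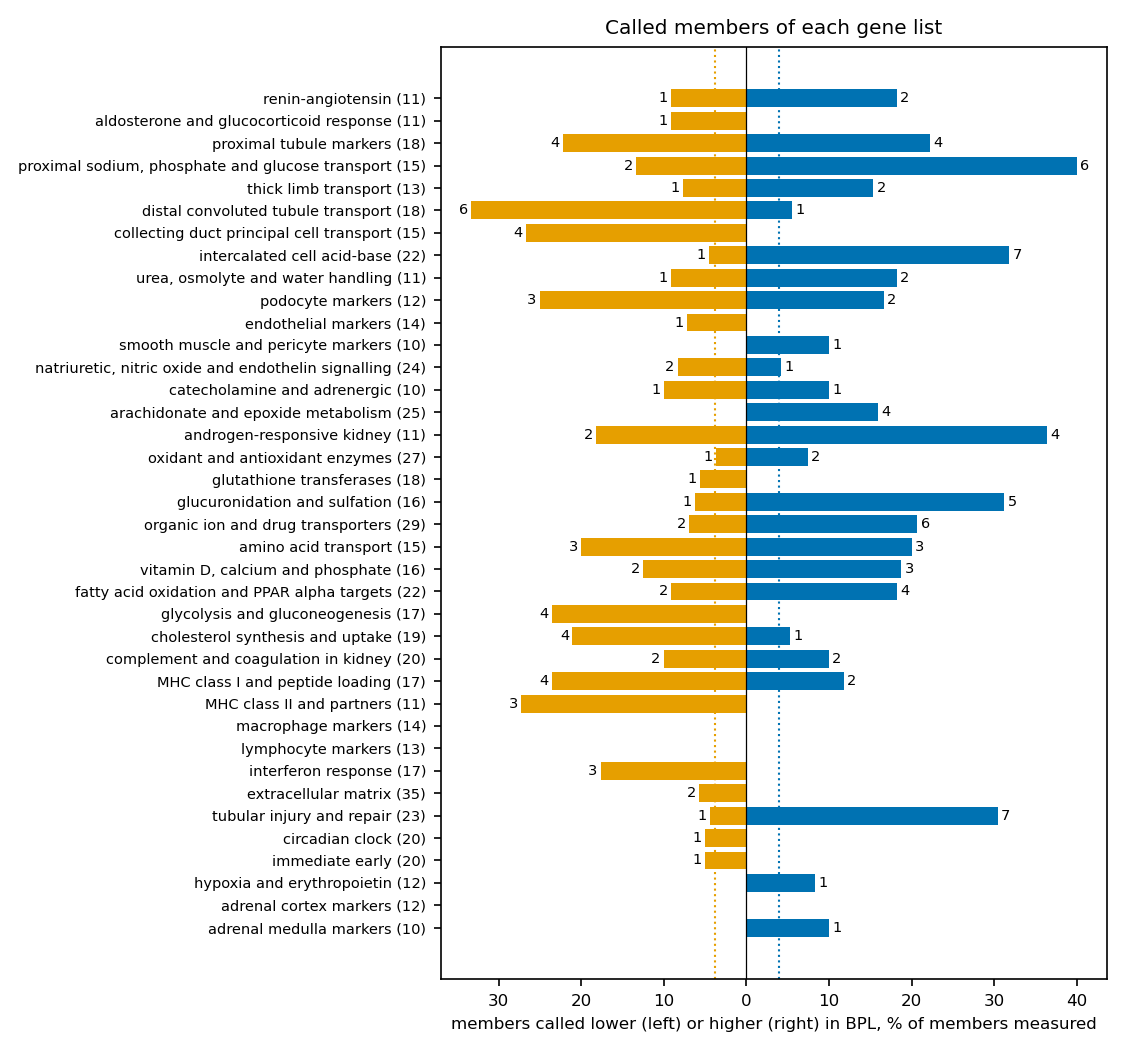
Percent of measured members of each gene list called higher or lower in BPL; the dotted lines are the background over all genes, 3.96% higher and 3.81% lower.

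Kidney calls were compared with those in other tissues of the same strains, whose arrays may come from the same mice. Over all probe sets, 9.34% were called in heart, 7.47% in liver and 10.3% in aorta. Aorta was amplified by another protocol and its groups are of other sizes. Its counts and differences are therefore not measured alike, and no difference between kidney and aorta was tested. Of the 2396, 691 (28.8%) were called in heart in the same direction, which is 19.3% of the heart calls, 718 (30%) in liver, which is 25.1% of the liver calls, and 632 (26.4%) in aorta, which is 15.9% of the aorta calls. In the opposite direction 124 were called in heart, 76 in liver and 156 in aorta. In all 3 other tissues 218 (9.1%) were called in the same direction, and 956 (39.9%) were called in none. An interaction fit of all 67 arrays asked which kidney differences exceeded those of heart and of liver. That held for 284 of 38385 probe sets (0.74%), 149 higher and 135 lower in BPL. The kidney difference of Agt exceeded that of heart by -3.24, that of Mep1a by -3.54 and that of Bcat1 by -3.58, while Tm4sf5, Ttr and Ugt2b37 did so by 4.07, 4.21 and 3.59. H2-Ea and Sod2 were not among the 284. Tmem267 was among them, although it was lower in heart (-3.90) and liver (-5.04) as well.

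**Figure D5:**
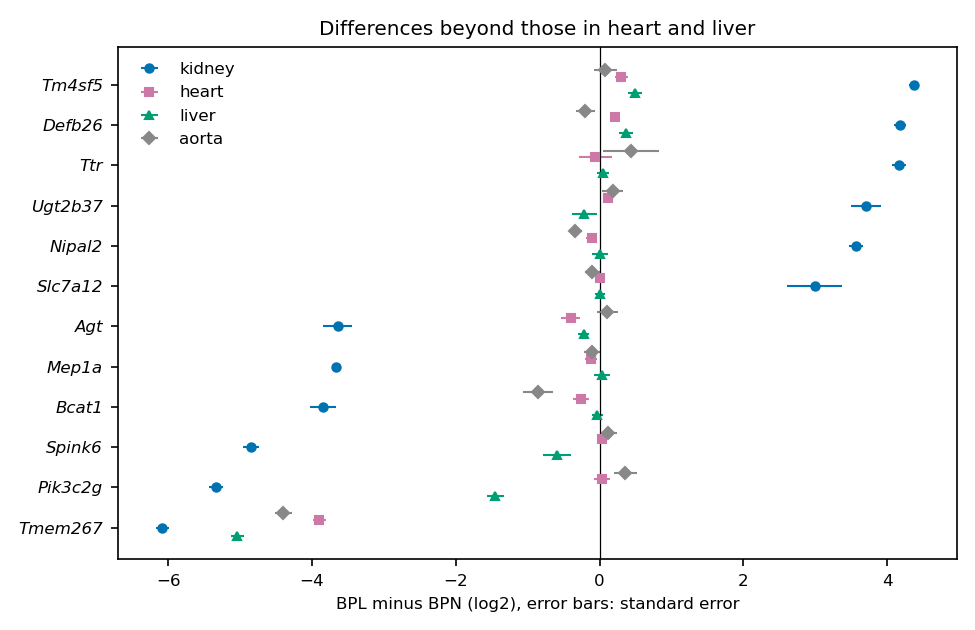
BPL minus BPN difference (log2) of named genes in kidney, heart, liver and aorta, the last amplified by another protocol. The kidney value of Agt is -3.64, that of heart -0.40 and that of liver -0.22.

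Some called genes lay side by side in the genome. Of 1482 called genes placed on a chromosome, 374 (25.2%) were next to another called gene among the measured genes, against 13.8% of uncalled genes, with no test made. On chromosome 13 Fgf10 (-0.32), Nnt (-0.44), Paip1 (1.16), 4833420G17Rik (-1.15) and Tmem267 (-6.08) are adjacent, and Hmgcs1 lies 3 measured genes beyond Tmem267. Alox15 and Alox12 lie 6 and 8 measured genes from Tm4sf5, and all 3 were higher. Slc12a3 lies 2 measured genes from Mt1. Neighbours differed in both directions, as in the beta-defensin cluster, where Defb29 and Defb19 were lower (-1.64 and -1.07) near the higher Defb26. The cause was not tested.

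Probe sets of 1 gene could disagree. Of 540 genes with more than 1 probe set and any of them called, the brightest or not, 10 had probe sets called in opposite directions. For Folh1, a folate hydrolase of the brush border, the brighter probe set gave -0.95 ± 0.12 and the other 3.94 ± 0.09. For the peptide transporter Slc15a2 they gave -1.84 ± 0.09 and 0.96 ± 0.07. The cause was not tested, and a difference stated for a gene is that of its brightest probe set.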

How the data were processed

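For each probe set and array the authors deposited 1 intensity, made with RMA according to the submitters' processing notes. They span a linear range, so log2 was taken with a pseudocount of 0. RMA sets arrays to a common distribution, which removes differences in total RNA. Depth does not apply to arrays, and the number of arrays limits precision.

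The 14 kidney arrays were fitted with limma 3.58.1 in R 4.3.3, a mean per strain, with the adjusted p-values taken over 38385 probe sets. Each gene was represented by the brightest of its probe sets, by mean over these arrays, among those with 1 symbol in the platform annotation (24478 probe sets). Named genes were the 12 largest differences in each direction, 28 fixed genes, up to 6 called members per list, up to 6 per direction beyond heart and liver, and genes stated as chosen afterwards. The 12 were taken among called genes whose BPL and BPN arrays do not overlap. Their higher strain mean had to reach 4.94, the median of all probe sets. Members and lists were chosen with earlier results of these data known. The procedure was tested on simulated data. Alternatives are in the closing section. No batch was given.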

Additional observations from a re-analysis of the deposited data

Results flagged for a closer look

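In 19 of 346 groups of arrays (132 genes and 41 lists, in each strain), 1 array stood far from the rest of its strain, judged by its gap to the nearest array divided by the whole range. Chance gives about 1 in 20 groups. In BPL, array 1 was highest for Cyp11a1 (ratio 0.91), Slc4a9 (0.91) and Xdh (0.95), and for the mean level of the adrenal medulla (0.86), circadian clock (0.87) and vitamin D, calcium and phosphate (0.93) lists. Array 2 was highest for Ephx2 and Slc5a12 (0.88 each) and lowest for Hsd3b3 (0.83). Array 5 was lowest for Slc26a1 (0.83), and array 4 was highest for the mean of the red blood cell markers (0.96).

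In BPN, array 1 was highest for Mt1 (0.77) and array 4 for Nipal2 (0.77), while array 2 was lowest for Slc20a2 (0.77) and 4833420G17Rik (0.81). Array 5 was lowest for Mme (0.74) and for the mean of the thick limb (0.83) and podocyte (0.79) lists, and array 4 was lowest for the mean of the aldosterone and glucocorticoid response list (0.75). The called differences of these genes were called with that array left out, except that of Ephx2, which was lost without BPL 2.

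For 284 probe sets called in kidney, the strain difference went beyond that of heart and of liver, in its own direction, in the interaction fit. Kidney minus heart, it was 4.07 for Tm4sf5, 3.96 for Defb26, 4.21 for Ttr, 3.59 for Ugt2b37, 3.68 for Nipal2 and 2.98 for Slc7a12. It was -2.17 for Tmem267, -5.36 for Pik3c2g, -4.88 for Spink6, -3.58 for Bcat1, -3.54 for Mep1a and -3.24 for Agt. Tmem267 was lower in heart and liver as well, by -3.90 and -5.04.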

How the results depend on the processing

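The number of called probe sets, 2396, ranged from 1840 to 2306 with each array left out (878 to 1279 higher, 942 to 1047 lower, 270 to 292 of 2-fold or more), and the called genes from 1135 to 1408. Without BPL 1, BPN 4 and BPN 5 together it was 1639, with 990 genes called against 1488. Other alternatives gave 1921 (9 arrays alone), 1636 (joint fit of all 67 arrays), 2736 (adrenal covariate), 2503 (array weights), 2879 (trend and robust), 2579 (probe sets above the lower quartile), 1774 (1 probe set per gene) and 2936 (16 added before log2).

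With 1 probe set per gene, 170 differed 2-fold or more against 278, since fewer probe sets were tested. With 16 added, 477 exceeded heart and liver against 284, and leaving out each array gave 255 to 290; the cause was not tested. Centring each array on its median raised the share of calls that were higher from 51.5% to 58.2%, and quantile normalization gave 49.5%.

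Taking the probe set of largest statistic reversed Folh1 to 3.94 (adjusted p = 1.14e-14) and Cd3e to -0.42 (adjusted p = 0.0413). Of 181 named genes called, 104 kept their call and direction under every alternative.

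The replicate block, with the array number as a term, gave 1889 calls (926 higher, 963 lower, 275 of 2-fold or more, 1165 genes). Same-numbered arrays correlated at -0.03, -0.08, -0.15 and -0.07, and 0 of 4 correlated best with its own number, so no pairing by number was seen. These correlations carry the adrenal signal of BPL 1, BPN 4 and BPN 5. They cannot decide whether same-numbered arrays share an animal. Low intensities may lie at background, which limits what the dim probe sets show.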

Other observations

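Genes outside the lists, chosen after their values were seen, differed as strongly. Cndp2, a dipeptidase, read 12.57, 12.60, 12.47 and 12.49 in BPL and 10.25 to 10.45 in BPN, 4.58-fold higher (2.20 ± 0.06, adjusted p = 2.35e-13), with a BPH mean of 12.55 ± 0.06. Ctsl, the lysosomal protease cathepsin L, was 2.42-fold higher (1.28 ± 0.07, adjusted p = 1.09e-09), and its BPH mean, 11.07 ± 0.04, lay below the BPN mean of 11.71 ± 0.12. Defb1, a beta-defensin of the distal nephron, was 2.76-fold higher (1.46 ± 0.09, adjusted p = 8.85e-09), and Cdhr2, a cadherin that links microvilli of the brush border, was 2.71-fold higher (1.44 ± 0.07, adjusted p = 5.2e-10).

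Among the decreases, Slc16a14, a monocarboxylate carrier family member, read 7.17 to 7.36 in BPL and 9.56 to 9.81 in BPN, 5.50-fold lower (-2.46 ± 0.15, adjusted p = 7.7e-09). Ggt6, of the gamma-glutamyltransferase family, was 4.08-fold lower (-2.03 ± 0.08, adjusted p = 4.74e-11). Mdk, the growth factor midkine, was 2.50-fold lower (-1.32 ± 0.11, adjusted p = 3.14e-07), and Kcnk1, a potassium channel, was 2.23-fold lower (-1.15 ± 0.08, adjusted p = 9.19e-08). The arrays of these 8 genes did not overlap between the strains. Since the genes were picked for their strong differences, the lack of overlap is no added support.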
